A study of Homo sapiens with 4 samples.

Results

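Tumor immune checkpoint ligands are surface proteins by which tumor cells restrain T cells, natural killer cells and macrophages. The set described here holds 9 genes, taken by gene name from the 60544 genes of the deposited count table: CD274, PDCD1LG2, CD276, VSIR, PVR, NECTIN2, CD47, NT5E and LGALS9. All 9 were found, and 8 of them passed the low-count filter, as did 16802 genes in all. Poly(A) RNA was sequenced from PC3, an established human prostate cancer line, grown in RPMI-1640 medium with serum. The control group, labelled shNC, and the group labelled sh812, read as the METTL3 knockdown of the series design, had 2 libraries each, with shNC taken from its label as a control hairpin RNA and no other treatment named for either group. Whether the replicates were separate cultures, and whether the cells were a pool or a clone, is not given in the sources used here, so p-values measure only the spread between these libraries.

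METTL3 is the enzyme that places most N6-methyladenosine (m6A) on messenger RNA, and reader proteins bound to this mark affect how long an RNA lasts and how well it is translated. Checkpoint ligands act by binding inhibitory receptors: CD274 (PD-L1) and PDCD1LG2 (PD-L2) bind PD-1 on T cells, PVR (CD155) and NECTIN2 (CD112) bind TIGIT and related receptors on T and natural killer cells, and CD47 binds SIRPA on macrophages. NT5E (CD73) differs in that it is an enzyme, which turns extracellular AMP into adenosine, a suppressor of T cells. CD274 is a classical target of interferon gamma, which acts through JAK kinases and the transcription factors they switch on.

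The letters before a RefSeq transcription start are shown for 2 of the genes. NT5E was the only ligand that passed the test, and CD274 is the ligand with the best known inducible promoter. RefSeq (GRCh38.p14) gave windows for 8 of the 9 genes, with 2 for CD276, and none was at hand for PDCD1LG2. Each window holds the 250 bases before a transcription start, 5′ to 3′ on the gene's strand. Capitals mark matches, on either strand, to the GC box GGGCGG, to the cyclic AMP response element half-site TGACG and to the interferon-stimulated response element, searched as GAAA, any 2 bases and GAAA. The NT5E window lies at chr6:85449833-85450082 on the plus strand and the CD274 window at chr9:5450292-5450541 on the plus strand.
NT5E: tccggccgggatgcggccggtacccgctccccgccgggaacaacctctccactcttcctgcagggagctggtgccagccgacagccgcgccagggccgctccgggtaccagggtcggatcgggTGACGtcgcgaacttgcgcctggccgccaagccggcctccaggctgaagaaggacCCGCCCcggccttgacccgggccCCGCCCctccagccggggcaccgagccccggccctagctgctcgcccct
CD274: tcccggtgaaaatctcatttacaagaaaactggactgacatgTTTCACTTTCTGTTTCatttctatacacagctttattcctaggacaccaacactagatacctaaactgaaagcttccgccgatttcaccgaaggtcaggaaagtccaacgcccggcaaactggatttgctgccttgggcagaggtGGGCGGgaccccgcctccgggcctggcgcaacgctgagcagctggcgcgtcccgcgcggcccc

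The CD274 window was the only one of the 9 with the interferon-stimulated response element, which it held as a pair of overlapping matches, and 3.02% of all 35116 RefSeq windows of this length held it. It also alone held the gamma-activated sequence TTCNNNGAA, which overlapped none of the capitals and is found in 6.57% of all windows. The GC box was in 7 of the 9 windows, against 42.6% of all windows, and was missing from those of PVR and LGALS9. The half-site TGACG was in the NT5E and CD47 windows, against 21.2% of all windows. The E-box CACGTG, the AP-1 site TGANTCA and the TATA box TATAAA were in none of the 9, against 6.34%, 6.57% and 10.7% of all windows. GC content was 75.2% in the NT5E window and 54.8% in that of CD274, against a median of 58% over all windows. A match to these letters is a description and does not show that a factor binds there.

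The common m6A motif GGACT was also searched, on the sense strand of the longest coding transcript of each gene in GENCODE 29. It occurred 5 times in the 3918 bases of the NT5E transcript, 3 of them in the coding sequence, where the first G is at coding positions 138, 376 and 466. These 3 stretches of 21 bases are shown with the motif in capitals, because the METTL3 transcript was lower in sh812. The METTL3 protein was not measured in these data.
NT5E at 138: accagcgaGGACTccagcaag
NT5E at 376: gtgtggaaGGACTgatcgagc
NT5E at 466: aaatatcaGGACTttatttgc
The density of GGACT in NT5E was 1.28 per kb, higher than in 70.6% of the 13235 tested coding genes with such a transcript. PVR had the highest density of the 8 ligands tested, 1.8 per kb, and VSIR the lowest, 0.427 per kb, around an all-gene median of 0.925. The motif stood in 92.4% of those transcripts, and no m6A measurement is used here.

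Total counts per library ranged from 31450648 to 37041330. Levels are given in CPM, the usual scaling of counts to a common library size, here the counts of the tested genes adjusted by TMM normalization factors. The METTL3 transcript was at 18.7% of the control level in sh812, with 269 and 313 counts against 1682 and 1379 (log2 fold change -2.42, edgeR adjusted p = 5.54e-14), and it shares 388 exon bases with TOX4 on the opposite strand. Epithelial markers were abundant in every library, among them KRT8, KRT18, KRT19, EPCAM and HOXB13, while the prostate-specific markers KLK2 and KLK3 had no counts. Among these markers KRT18, EPCAM and CDH1 rose and TMPRSS2 fell (edgeR adjusted p = 0.00793, 0.000128, 0.00511 and 0.00546). Of 14 leukocyte markers, 4 (CD3D, CD3E, CD2 and MS4A1) had no counts, none exceeded 0.844 CPM (PTPRC), none of the 3 tested was called by edgeR or had an unadjusted p under 0.05, and the summed level of all 14 was 1.77 to 2.64 CPM in shNC and 1.57 to 2.01 CPM in sh812. Of 9 stromal and endothelial markers, 1 was called, PECAM1, which rose from 23.7 to 35.7 CPM (edgeR adjusted p = 0.000222), while the endothelial genes VWF and CDH5 had at most 6 counts in any library. The summed level of those 9 was 67.5 and 69.4 CPM in shNC and 68.3 and 80.8 CPM in sh812, and their part in the results below was not tested.

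Of the 8 ligands tested, 1 was called in edgeR's quasi-likelihood test at a Benjamini-Hochberg adjusted p under 0.05, namely NT5E, which fell. Over all genes tested, 10.8% were called, 5.43% as higher and 5.42% as lower in sh812, so 1 of 8 is close to the share among all genes. Of the 8, 7 had a lower fitted level in sh812 and 1, CD276, a higher one, against 51% lower among all genes. The median log2 fold change of the 8 was -0.18, against -0.0056 over all genes tested, and the median size of change without sign was 0.175 against 0.169. The CPM ranges of the groups did not overlap in 6 of the 8, against 53.6% of all genes. An unadjusted p under 0.05 was reached by 5 of the 8, against 24.8% of all genes. Summed over the 9 ligands, the level was 468.3 and 472 CPM in shNC and 427.8 and 419.1 CPM in sh812. This sum weighs abundant transcripts most. From shNC to sh812 the mean went from 170.9 to 150.6 CPM for CD47 and from 84.5 to 63.6 CPM for NT5E. The mean of CD276 rose from 56.3 to 62.5 CPM.

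**Figure D1:**
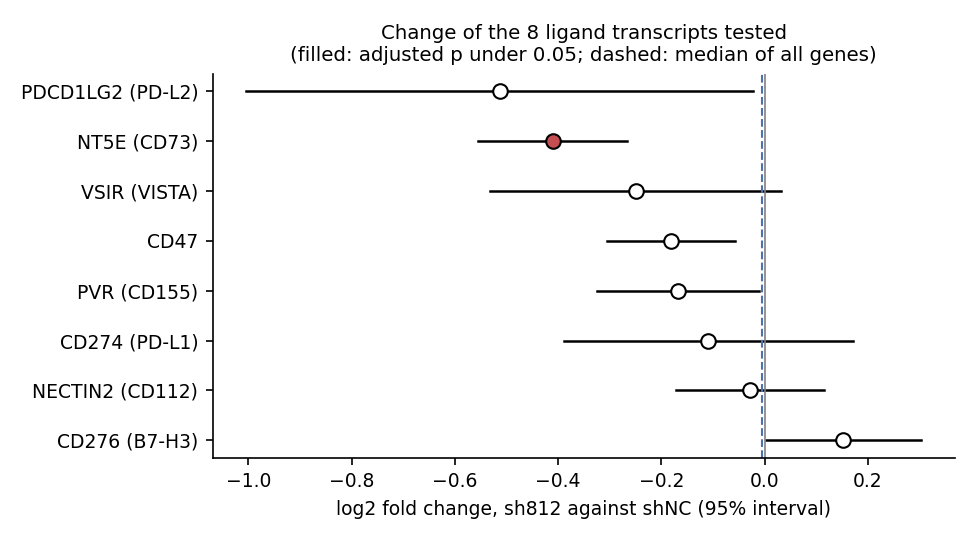
Log2 fold change of sh812 against shNC (horizontal axis) for the 8 ligand transcripts tested, with 95% intervals from the edgeR fit; the filled point marks an adjusted p under 0.05 and the dashed line the median of all genes. Only NT5E, at -0.41, is filled, and CD276 is the only point above 0.

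NT5E (ENSG00000135318), the AMP-hydrolysing enzyme CD73, lies on chromosome 6 from 85449584 to 85495791 (plus strand, GENCODE 29). It had 3230 and 2652 counts in shNC replicates 1 and 2, and 2147 and 2362 in the sh812 replicates. These correspond to 85.2 and 83.9 CPM in shNC and to 61.2 and 66.0 CPM in sh812. Both knockdown libraries thus lay well below both controls, and the difference of the means was larger than the spread within either group. The mean fell from 84.5 ± 0.918 to 63.6 ± 3.42 CPM (SD, n = 2), which is 75.2% of the control. The log2 fold change was -0.41 (SE 0.07, 95% interval -0.56 to -0.27), with an adjusted p of 0.000367 in edgeR, and 1.23% of the genes tested had a smaller p. No other gene overlaps NT5E in the annotation. In bulk RNA, fewer cells with a transcript and less of it per cell cannot be told apart.

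The call of NT5E held in each of the 15 alternatives, with log2 fold changes from -0.47 to -0.36. The highest adjusted p in edgeR was 0.0337, without sh812 replicate 1. With each library's trend on transcript length removed the log2 fold change was -0.39 (adjusted p = 0.000445 in edgeR). That trend was sizeable in these libraries: across genes, which are not independent replicates, the change from shNC to sh812 correlated with length at a Spearman rho of -0.33, and the difference of shNC replicate 2 from replicate 1 at -0.32.

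The genes whose 4-library pattern was most like that of NT5E were OPTN, TMOD3 and ITPRIPL2. Likeness was the Euclidean distance of log2 CPM centred per gene, over 4 libraries and 10419 coding genes with a mean of at least 5 CPM. The distances were 0.00969, 0.0313 and 0.0318, and the log2 fold changes of the 3 genes were -0.41, -0.38 and -0.41. All 3 were called in edgeR. Similar folds follow from the choice by likeness, so neither these folds nor these calls lend NT5E support. Over the fits that each left out a library, the log2 fold change ran from -0.48 to -0.35 for OPTN. It ran from -0.45 to -0.32 for TMOD3 and from -0.45 to -0.37 for ITPRIPL2.

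**Figure D2:**
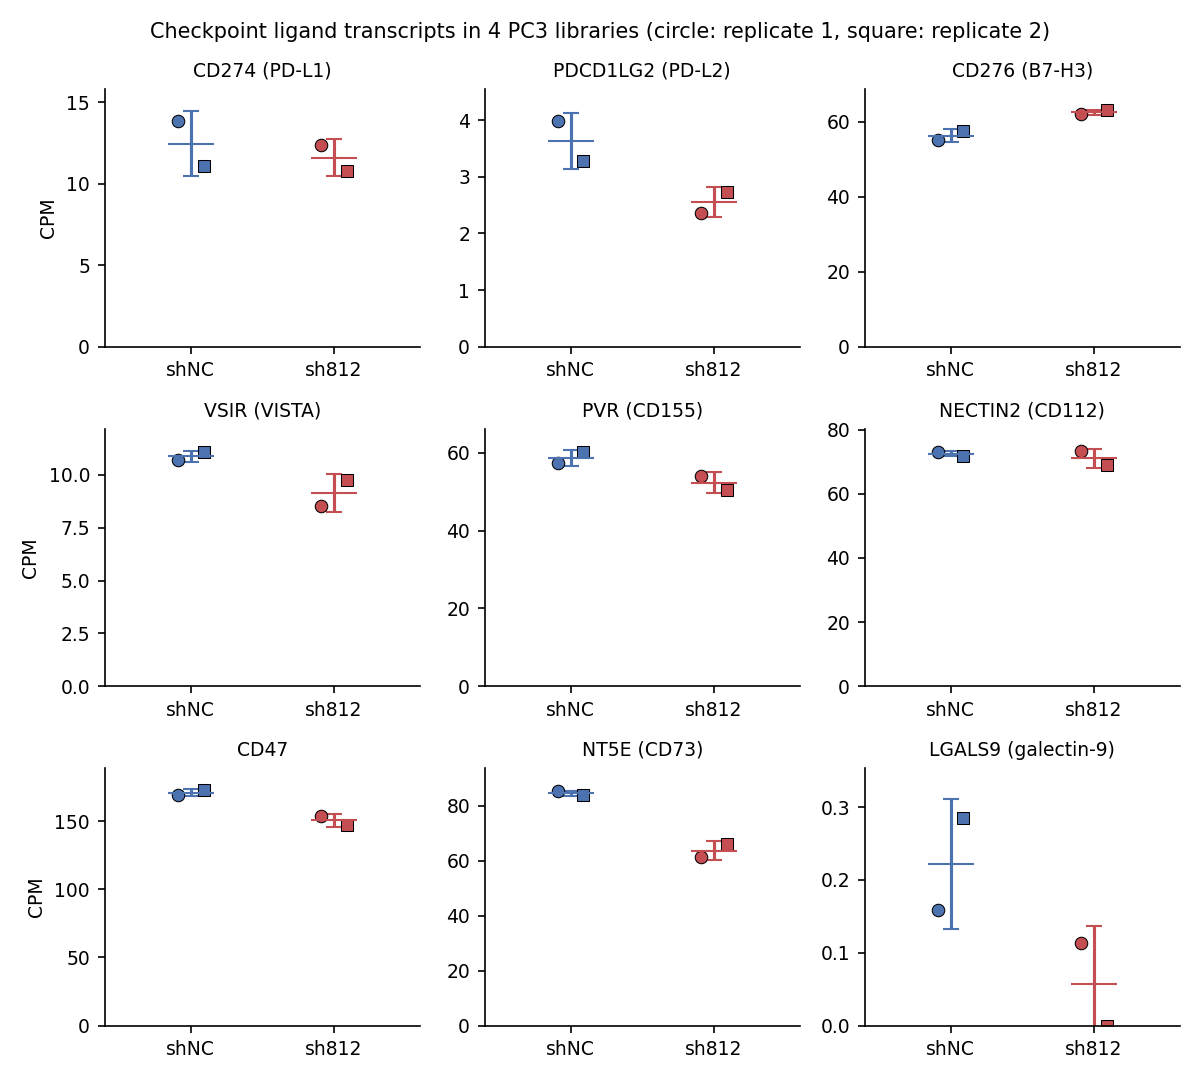
Level of each of the 9 ligand transcripts in CPM (vertical axis, starting at 0) in shNC and sh812, with circles for replicate 1, squares for replicate 2 and bars for the mean ± SD of 2 libraries. NT5E shows the clearest separation, from 83.9 or more in shNC to 66.0 or less in sh812, whereas CD274 and NECTIN2 overlap.

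CD47 (ENSG00000196776), the signal that restrains phagocytosis, was the most abundant of the ligands in CPM and the closest to the threshold after NT5E. It lies on chromosome 3 from 108043094 to 108091862 (minus strand). Its levels were 168.9 and 172.8 CPM in shNC and 153.8 and 147.4 CPM in sh812, so the groups did not overlap. The mean in sh812 was 88.1% of the control, with a log2 fold change of -0.18 (SE 0.06, 95% interval -0.31 to -0.06) and an adjusted p of 0.0525 in edgeR. It passed in 5 of 15 alternatives: with library size alone, with a mean CPM of at least 1, with limma-voom, and without either control library. Its longest transcript, of 6796 bases, is longer than those of 88% of the tested genes. With the length trend removed its log2 fold change was -0.11 (adjusted p = 0.26 in edgeR).

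CD274 (ENSG00000120217) and PDCD1LG2 (ENSG00000197646) are neighbours on the plus strand of chromosome 9, from 5450503 to 5470566 and from 5510570 to 5571254. CD274 was at 13.9 and 11.1 CPM in shNC and at 12.4 and 10.8 CPM in sh812. The groups overlapped, and replicate 1 was the higher library in both. Its log2 fold change was -0.11 (95% interval -0.39 to 0.17, adjusted p = 0.684 in edgeR), an interval that takes in both a fall and a rise, and it became 0.07 without shNC replicate 1.

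PDCD1LG2 had 151 and 104 counts in shNC and 83 and 98 in sh812. These are 3.98 and 3.29 CPM against 2.36 and 2.74 CPM, so both sh812 libraries were the lower ones. The mean in sh812 was 70.2% of the control, the lowest share among the ligands tested, but the low counts left a wide interval (log2 fold change -0.51, 95% interval -1.0 to -0.02, adjusted p = 0.179 in edgeR). The fold for PDCD1LG2 ran from -0.64 to -0.37 over the alternatives, and it was called in none. Per kb of transcript, the level of CD274 was 2.26 and 2.18 times that of PDCD1LG2 in shNC and 3.4 and 2.56 times in sh812.

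CD276 (ENSG00000103855) and VSIR (ENSG00000107738) are B7-related proteins that dampen T cells. CD276 (B7-H3), on chromosome 15 from 73683966 to 73714518, was the only ligand with a higher fitted level in sh812. It was at 55.1 and 57.5 CPM in shNC and at 62.1 and 63.0 CPM in sh812, without overlap. The log2 fold change was 0.15 (95% interval 0.00 to 0.30, adjusted p = 0.196 in edgeR), and no alternative called it. VSIR (VISTA), on chromosome 10 from 71747559 to 71773498, was at 10.7 and 11.1 CPM in shNC and at 8.52 and 9.78 CPM in sh812. Its log2 fold change was -0.25 (95% interval -0.53 to 0.03, adjusted p = 0.267 in edgeR). It lies within CDH23 on the opposite strand, with which it shares no exon bases and which had 16 counts over the 4 libraries.

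PVR (ENSG00000073008) and NECTIN2 (ENSG00000130202) share the receptors TIGIT and CD226 and lie on chromosome 19, PVR from 44643798 to 44663583 and NECTIN2 from 44846175 to 44889228. PVR was at 57.3 and 60.2 CPM in shNC and at 54.2 and 50.3 CPM in sh812, both knockdown libraries being lower. Its log2 fold change was -0.17 (95% interval -0.32 to -0.01, adjusted p = 0.166 in edgeR). PVR shares 121 exon bases with CEACAM19 on the same strand, a gene with 147 counts in all. NECTIN2 was at 73.2 and 71.9 CPM in shNC and at 73.2 and 69.0 CPM in sh812, and the groups overlapped. Its log2 fold change of -0.03 was the closest to 0 of the 8 (95% interval -0.17 to 0.12, adjusted p = 0.858 in edgeR), and was 0.01 without sh812 replicate 2. The level of NECTIN2 per kb was 1.72 and 1.61 times that of PVR in shNC and 1.82 and 1.85 times in sh812.

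LGALS9 (ENSG00000168961), which encodes galectin-9, a ligand of the T cell receptor TIM-3, was barely detected. It had 6 and 9 counts in shNC and 4 and 0 in sh812, and did not pass the low-count filter. The near-identical copies LGALS9B and LGALS9C had no counts in any library. Because of this likeness, the counts of LGALS9 and of both copies are uncertain. A difference in LGALS9 is not detectable at this depth.

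Per kb of the longest transcript, the control levels ran in the order NECTIN2 (29.4 ± 0.36 CPM per kb), CD47 (25.1 ± 0.405), NT5E (21.6 ± 0.234), PVR (17.7 ± 0.619), CD276 (16.2 ± 0.498), CD274 (3.42 ± 0.543), VSIR (2.32 ± 0.0548), PDCD1LG2 (1.54 ± 0.207) and LGALS9 (0.0711 ± 0.0287; SD, n = 2 for each). Between the control libraries no neighbours in this order overlapped. In sh812, CD276 at 18.0 ± 0.203 stood above NT5E at 16.2 ± 0.874 and PVR at 15.7 ± 0.814 CPM per kb (SD, n = 2), and the ranges of NT5E and PVR overlapped. By this length the set thus splits into 5 transcripts above 15 CPM per kb and 4 below 4. With the union of all exons as the length, 5 of the 9 genes kept their place in the order of the mean over all libraries. CD47 and NECTIN2 changed places, as did CD276 and PVR. By that length the mean of CD276 was 10.7 CPM per kb, below 15.

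**Figure D3:**
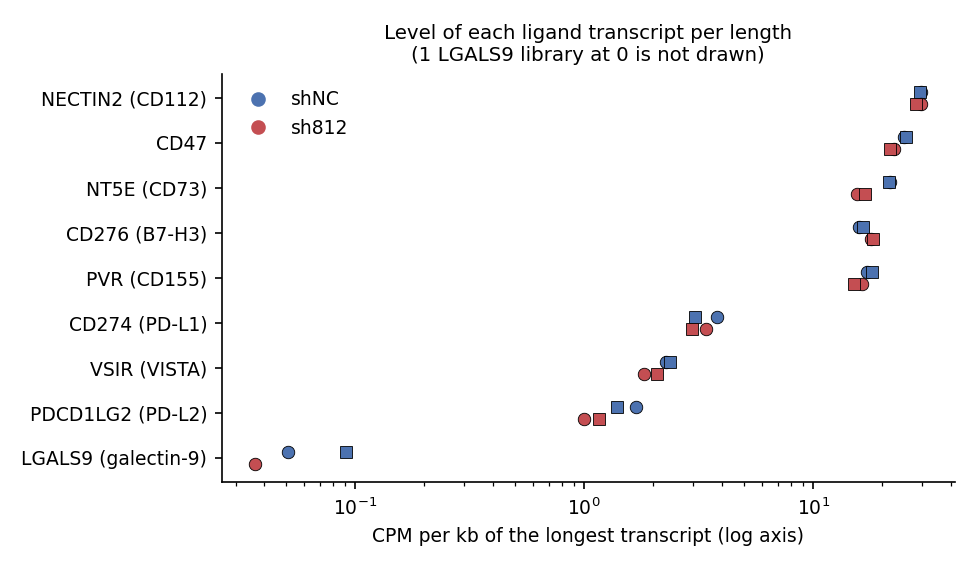
CPM per kb of the longest transcript (horizontal log axis) of the 9 ligand transcripts in each library, with circles for replicate 1 and squares for replicate 2, ordered by their mean. NECTIN2, CD47, NT5E, CD276 and PVR lie above 15 CPM per kb in every library, and CD274, VSIR, PDCD1LG2 and LGALS9 below 4.

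The other genes of these pathways were taken from 11 lists. Together the lists held 107 tested genes, of which 13 were called, 6 higher and 7 lower. That is 12.1%, against 10.8% of all genes. With library size alone the split was 3 higher and 12 lower.

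**Figure D4:**
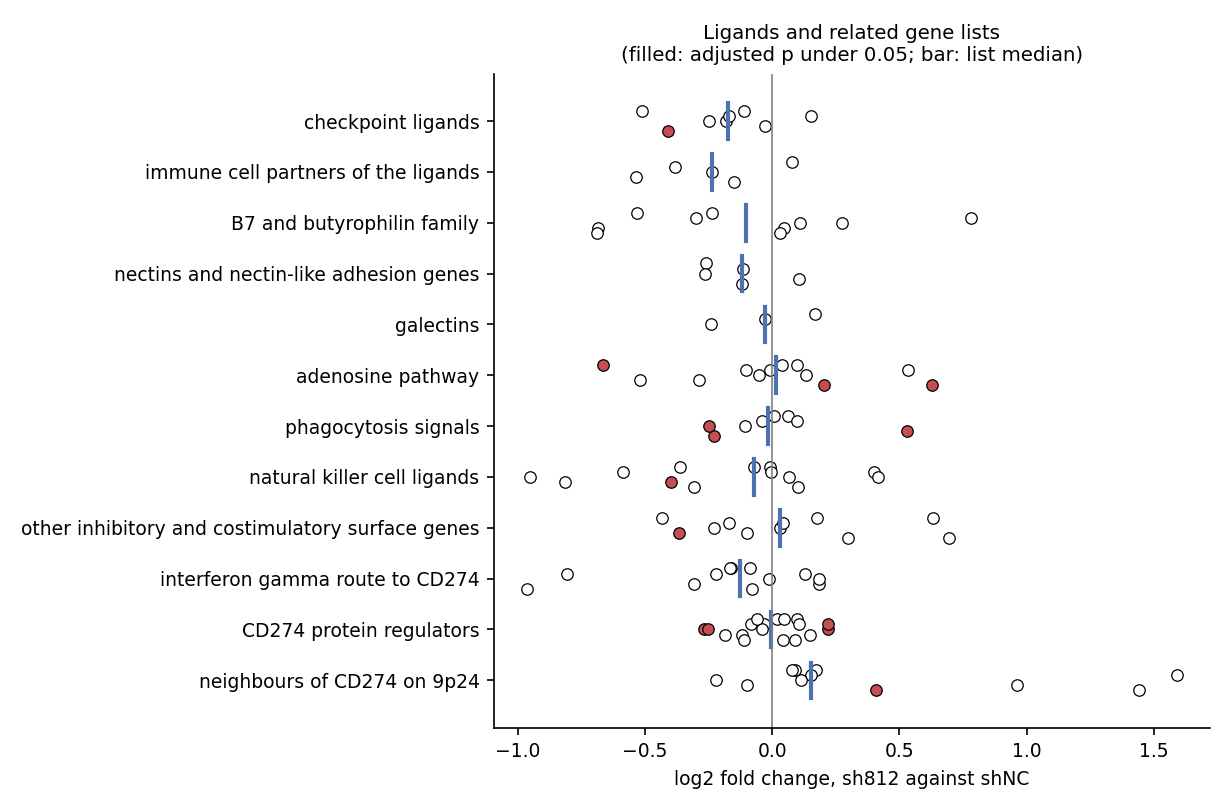
Log2 fold change of sh812 against shNC (horizontal axis) for the tested genes of the ligand set and of 11 related lists, with filled points for an adjusted p under 0.05 and a bar for each list's median; JAK2 stands in 2 lists. Called genes appear on both sides of 0 in the adenosine, phagocytosis and CD274 regulator lists.

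In the adenosine pathway, in which NT5E makes adenosine, 3 of 12 tested genes were called, against 10.8% of all genes. ENPP1, an ectoenzyme that can supply NT5E with AMP from ATP, was at 20.9 and 18.9 CPM in shNC and at 12.5 and 12.6 CPM in sh812. It fell by 0.67 on the log2 scale (SE 0.11, adjusted p = 0.000401 in edgeR), called in each of 15 alternatives. DPP4, a surface peptidase that anchors adenosine deaminase, was at 18.6 and 18.2 CPM in shNC and at 27.5 and 29.3 CPM in sh812. It rose by 0.63 on the log2 scale (SE 0.10; edgeR adjusted p = 0.000162), also called in each alternative. PNP, which breaks down inosine, had a log2 fold change of 0.20 (adjusted p = 0.0492 in edgeR) and lost its call in 8 of 15 alternatives. Outside the naming rule, 2 genes were chosen after their values were seen. ENTPD1 (CD39), the classical supplier of AMP, was at 2.56 to 4.67 CPM (log2 fold change 0.53, adjusted p = 0.132 in edgeR), and passed without shNC replicate 2 (0.75, adjusted p = 0.0242). The adenosine receptor gene ADORA2B was at 32.4 to 36.2 CPM (log2 fold change 0.13, adjusted p = 0.364 in edgeR). The median log2 fold change of the list was 0.02, with 6 genes higher and 6 lower.

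Among genes that macrophages read as signals to engulf a cell or leave it, 3 of 8 tested were called, against 10.8% of all genes. The list median was -0.02. CD24, a surface protein that like CD47 restrains phagocytosis, was at 93.9 and 87.2 CPM in shNC and at 130.1 and 131.5 CPM in sh812. It rose by 0.53 on the log2 scale (SE 0.07; edgeR adjusted p = 5.62e-06) and was called in each of 15 alternatives, but CD24 has near-identical copies in the genome, so its counts are uncertain. THBS1, a secreted CD47 ligand, and LRP1, a receptor for calreticulin, fell: the log2 fold change was -0.25 for THBS1 (edgeR adjusted p = 0.0059) and -0.23 for LRP1 (edgeR adjusted p = 0.0271). THBS1 lost its call without either sh812 library (adjusted p = 0.144 and 0.132), and LRP1 without sh812 replicate 1 (log2 fold change -0.13, adjusted p = 0.588) and with the length trend removed (-0.14, adjusted p = 0.183). THBS1 and LRP1 share exon bases with FSIP1 and STAT6 on the opposite strand.

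Of the 14 genes for partners of the ligands, mostly immune receptors, 5 were tested. None was called, and 2 had an unadjusted p under 0.05 in edgeR. Over all genes, these shares were 10.8% and 24.8%. DESeq2, which gave 2 of the 5 no adjusted p, and limma-voom also called none. PDCD1 (PD-1), TIGIT and CTLA4 had no counts. SIRPA, the CD47 receptor, had the highest level, 97.5 and 98.6 CPM in shNC and 86.7 and 90.2 CPM in sh812 (log2 fold change -0.15, adjusted p = 0.155 in edgeR). RGMB, which binds PDCD1LG2, was at 41.0 and 41.9 CPM in shNC and at 35.2 CPM in both sh812 libraries (log2 fold change -0.24, adjusted p = 0.0677 in edgeR). RGMB passed with library size alone and with a mean CPM of at least 1.

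On the interferon gamma route to CD274, none of 12 tested genes was called in edgeR with TMM, DESeq2 or limma-voom. An unadjusted p under 0.05 in edgeR was reached by 2 of the 12. Over all genes, 10.8% were called and 24.8% had such a p in edgeR. DESeq2 gave 3 of the 12 no adjusted p. Other edgeR fits called 1 gene lower with library size alone, 1 higher without shNC replicate 1, 1 higher with the replicate block and the length trend removed, and 3 (1 higher and 2 lower) without shNC replicate 2. The list median was -0.13, with 9 genes lower. The kinase gene JAK2, chosen after its values were seen, was at -0.22 on the log2 scale (edgeR adjusted p = 0.286). Of 18 regulators of the CD274 protein, 4 were called, against 10.8% of all genes, and the median was -0.005. STT3A, which attaches N-glycans, and ZDHHC9, a palmitoyltransferase, fell: the log2 fold change was -0.27 for STT3A (edgeR adjusted p = 0.00426) and -0.25 for ZDHHC9 (edgeR adjusted p = 0.0319). The palmitoyltransferase ZDHHC3 and the kinase CDK4 rose, both by 0.22 (adjusted p = 0.0353 and 0.0306 in edgeR). Each of the 4 lost its call without 1 or more single libraries: STT3A without either sh812 library (adjusted p = 0.0748 and 0.117), and ZDHHC9 without shNC replicate 2 (0.0804) or sh812 replicate 1 (0.486), in DESeq2 (0.0527) and with the length trend removed (0.0705). ZDHHC3 and CDK4 lost theirs without shNC replicate 1 (0.167 and 0.118), sh812 replicate 1 (0.125 and 0.169) or sh812 replicate 2 (0.366 and 0.303), and with library size alone (0.0879 and 0.0789), and CDK4 also with the length trend removed (0.0951). CDK4 shares exon bases with TSPAN31 on the opposite strand. STT3A shares 80 exon bases with CHEK1 on the same strand.

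Of 11 tested neighbours of CD274 on the short arm of chromosome 9, PLGRKT, a plasminogen receptor gene, was called. It was at 14.1 and 15.8 CPM in shNC and at 20.9 and 18.6 CPM in sh812 (log2 fold change 0.41, adjusted p = 0.0224 in edgeR). Of the 11, 9 were higher, with a median of 0.15, while CD274 and PDCD1LG2 had fitted values below 0. Over all genes, 10.8% were called and 51% were lower. Several of the 9 had few counts. INSL4 had 12 and 6 in shNC and 45 and 10 in sh812, RLN1 14 and 0 against 19 and 8, and RLN2 6 and 4 against 14 and 14. When genes averaging under 1 CPM were dropped, 8 neighbours remained and their median was 0.09. PLGRKT lost its call with the length trend removed (0.26, adjusted p = 0.137), without shNC replicate 1 (adjusted p = 0.0894) and without sh812 replicate 1 (adjusted p = 0.29).

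The calls in other families related to the ligands stand against 10.8% of all genes called in edgeR. Of all genes, 24.8% had an unadjusted p under 0.05 in edgeR. None of 10 tested B7 and butyrophilin genes, 5 nectin-family genes and 3 galectin genes was called in edgeR with TMM or in DESeq2, which gave 2 of the B7 and butyrophilin genes no adjusted p, with 4, 1 and 2 at an unadjusted p under 0.05 in edgeR. limma-voom called 1 of them, LGALS1. Of the B7 and butyrophilin genes, 1 was called lower with the replicate block, upper quartile factors, library size alone, the filter on a mean CPM of 1, the length trend removed, and without either control library, and 2 with the block and the length trend removed. BTN2A2, named after its values were seen, was at the threshold, with a log2 fold change of -0.30 (adjusted p = 0.05 in edgeR). Without shNC replicate 2, edgeR called 1 nectin-family gene lower and 2 galectin genes, 1 in each direction, and with no low-count filter 1 galectin gene higher. Their medians were -0.10, -0.12 and -0.03. Among 13 tested ligands of natural killer cell receptors, ICAM1, an adhesion molecule for lymphocytes, was called. Of these 13, 5 had an unadjusted p under 0.05 in edgeR, and 9 were lower and 4 higher. ICAM1 was at 158.6 and 171.5 CPM in shNC and at 117.4 and 132.8 CPM in sh812, and fell by 0.40 on the log2 scale (SE 0.07, adjusted p = 0.000318 in edgeR). Among 11 other inhibitory and costimulatory genes, CD59, an inhibitor of complement lysis, was called. Of these 11, 2 had an unadjusted p under 0.05 in edgeR, and 5 were lower and 6 higher. CD59 was at 209.4 and 224.8 CPM in shNC and at 168.0 and 169.0 CPM in sh812, and fell by 0.37 (SE 0.06, adjusted p = 0.000264 in edgeR). The medians of these 2 lists were -0.07 and 0.03, and ICAM1 and CD59 were called in each of 15 alternatives.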

How the data were processed

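Counts per gene of 4 poly(A) RNA-seq libraries were used as the authors deposited them: whole-number read counts for 60544 genes, not normalized. fastp, STAR 2.7.1a, featureCounts, DESeq2 and the build hg38 are named in the submitters' processing notes; annotation release and strand setting are not given in the sources used here, although the labels' protocols describe a strand-marking kit. The test was that of edgeR 4.0.16 under R 4.3.3 (low counts removed by filterByExpr, TMM factors, glmQLFit, glmQLFTest, no covariate, prior count 0.125), with Benjamini-Hochberg adjustment over 16802 genes. Standard errors and 95% intervals were derived from the quasi-likelihood F statistic. Total counts were 31450648 to 37041330 per library. The replicates differed by more than sampling noise (chi-square per gene 8.43 and 4.51), which does not show that they were separate cultures. Each library was counted once as a replicate.

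Positions and transcript lengths were read from GENCODE 29 on GRCh38, where 16635 of the tested genes were found by gene identifier. Some genes of the lists are not reported here. Members and lists were chosen with earlier results of these data known. Named genes were the members, METTL3 and, per list, each called gene if 4 or fewer, otherwise the 4 with the smallest p. Alternatives were RLE and upper quartile factors, library size alone, other low-count filters, DESeq2 1.42.0, limma-voom 3.58.1, the replicate number as a block, a prior count of 2, removal of each library's length trend (lowess, span 0.3), that removal with the block, and each library left out. On simulated counts for this comparison (16406 genes tested), edgeR called 70% of the genes given a log2 change of 1 and 57% of the genes given one of 0.5. In that simulation 200 genes were changed, and 3 of the 130 calls were of unchanged genes. Because 1822 genes were called in the data, the threshold there differs and these shares do not carry over. Smaller changes were not simulated.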

Additional observations from a re-analysis of the deposited data

How the results depend on the processing

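NT5E kept its direction and its call in all 15 alternatives. The number of ligands called was 1, and became 2, with CD47 added, with library size alone, a mean CPM of at least 1, limma-voom, and without shNC replicate 1 or shNC replicate 2; it ran from 1 to 2 over the libraries left out. Over the 4 fits that each left out a library, the lowest and highest log2 fold changes were -0.254 and 0.066 for CD274 and -0.0706 and 0.0126 for NECTIN2. The positive values came without shNC replicate 1 for CD274 and without sh812 replicate 2 for NECTIN2; the cause was not tested. LGALS9, below the low-count filter, was fitted in 3 alternatives, with log2 fold changes from -5.97 to -0.92 and adjusted p from 0.28 to 0.819; with so few counts these depend on the prior count. Leaving out a library gave 587 to 3252 called genes against 1822, and 5 to 23 called genes of the related lists against 13; the lowest were without sh812 replicate 1 (587 and 5) and the highest without shNC replicate 2 (3252 and 23), and without sh812 replicate 2 they were 682 and 8. In such fits the lone library is assumed to vary like the other group. Library size alone gave 561 genes higher and 1328 lower, against 912 and 910, and a median log2 fold change of -0.05. In the order of levels, 5 of 9 genes kept their place with union exon length, and 7 to 9 without a library. Deviations of same-numbered libraries correlated at 0.0164 across genes, which does not settle whether the libraries were paired. The shNC replicates also differed along transcript length (Spearman rho -0.32), the sh812 replicates hardly (0.04). With the replicate block 2001 genes were called, against 1822. In that edgeR fit NT5E had a log2 fold change of -0.41 and CD47 an adjusted p of 0.0532, and the ligand count stayed at 1. With the block and the length trend removed, the NT5E value was -0.40. At this depth LGALS9 had 15 counts in shNC and 4 in sh812 and was called in none of those fits.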

Other observations

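STAT3, a transcription factor downstream of interleukin-6 and listed here on the interferon route, had 48 and 35 counts in shNC and 26 and 22 in sh812. The STAT3 level was 0.615 to 1.26 CPM (log2 fold change -0.81, adjusted p = 0.276 in edgeR). It was chosen after its values were seen.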
